A study of Mytilus galloprovincialis with 40 samples.

Results

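The clones described here gave a bright signal that moved little over the year in digestive glands of female *Mytilus galloprovincialis*, mussels collected in the Bizerta Lagoon, Tunisia. Of 1920 cDNA clones on the array, 640 lay in the top 1/3 by mean A, the average log2 intensity of both dyes over 40 arrays. The moderated F test over the 12 months called 407 of these 640 at an adjusted p under 0.05, and 233 were not called. The 150 of those 233 with the smallest range, which is the difference between the highest and the lowest fitted month, are the stable bright clones. The members were thus chosen by measured values, namely brightness, the F test and the range. Values that follow from these measures are given as description, with no test, and an F test that misses its threshold does not show that a transcript kept 1 level.

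Each array compared RNA of a month with RNA of the month before it, one in Cy3 and the other in Cy5, so that 12 steps closed a yearly loop from May 2007 to April 2008. The step May/Apr set May 2007 against April 2008 and is the only one whose months did not follow each other. The 4 steps from Feb/Jan to May/Apr had 4 arrays each and the other 8 steps had 3 each. Cy5 carried the later month on 15 arrays and Cy3 on 25. The paper's methods describe single females, taken from the gonad stage that was most frequent at each sampling, and no treatment was given. Season and gonad stage therefore cannot be told apart. The labels do not say whether an animal was used on more than 1 array, and p-values measure only the spread between these arrays.

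The digestive gland is the main organ of digestion, nutrient storage and detoxification in bivalves, and it exchanges reserves with the gonad through the reproductive year. Transcripts that vary little through such a cycle are of practical use, since relative quantification by PCR and the scaling of arrays both lean on genes assumed to be steady, and genes for the cytoskeleton, ribosomes and translation are the usual choices. A ratio array with loess normalization measures a transcript against the bulk of the other clones, so stable here means moving with the bulk of the array and not constant in amount per cell. In whole glands, a change in the share of a cell type and a change in RNA per cell cannot be told apart. The files give clone codes but no gene names (0 of the codes were found in the reference gene table), so each clone is called by its code, and neither its function nor its sequence is stated. The clone sequences are not used here, and cell type markers could not be looked up.

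Before the results, the arrays that stood apart are given. Across all clones, the first Apr/Mar array correlated negatively with the other 3 arrays of its step (r = -0.73, -0.81 and -0.62), and across the 150 stable clones as well (r = -0.48, -0.76 and -0.23). Its dye labels were kept as given. With its sign turned, 136 of the 150 clones met the rule again and 13 were called by the F test (8.67%, against 40.9% of all clones). On the fourth Apr/Mar array none of the 240 clone spots of print-tip block 2 was above background, and on the fourth Mar/Feb array the same held for blocks 13, 15 and 16. These blocks held 10, 15, 9 and 8 of the stable clones. Without the fourth Apr/Mar array 145 of the 150 stayed on the list, and without the fourth Mar/Feb array 142 did. The share of all clone spots above background in both channels ranged from 13.6% to 78.4% over the 40 arrays (median 39.7%), and that of empty positions from 0% to 1.97%.

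The 150 clones differed among themselves in how little they moved. Their range ran from 0.16 to 0.81 on the log2 scale (1.12-fold to 1.75-fold between the highest and lowest month), with a median of 0.56 (1.48-fold). Of the 150, 13 stayed under 1.3-fold, 82 (54.7%) under 1.5-fold and all under 2-fold. Of all 1920 clones, 414 stayed under 1.3-fold, 874 (45.5%) under 1.5-fold and 1467 under 2-fold. For comparison, the median range was 1.21 (2.31-fold) in the 407 bright clones called by the F test, 1.03 in the 83 bright clones that were not called but had a larger range, and 0.63 over all 1920 clones. The F test called 37.4% of all clones and by the rule none of the 150. At an unadjusted p under 0.05, 30 of the 150 (20%) passed the F test, against 45.6% of all clones.

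**Figure D1:**
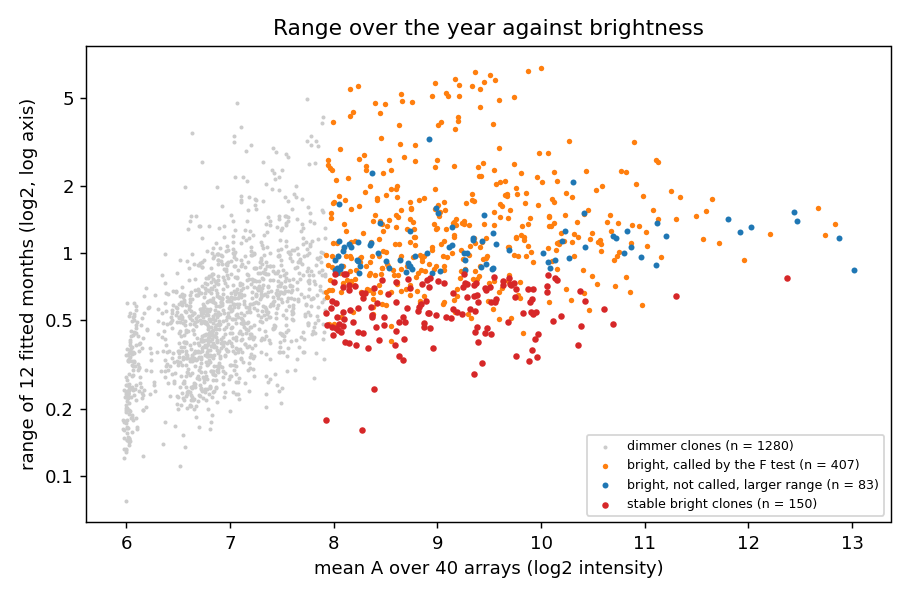
Range of the 12 fitted months (log2, on a log axis) against mean A over 40 arrays, 1 point per clone, coloured by class (150 stable bright clones, 83 bright clones not called with a larger range, 407 bright clones called by the F test and 1280 dimmer clones). The stable clones lie at ranges of 0.16 to 0.81 and at a mean A of 7.92 to 12.37, where bright clones reach 13.02. In addition, 83 bright clones called by the F test lie at ranges no larger than theirs.

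A small range alone did not make a clone a member. A range within the same limit of 0.81 was also reached by 83 bright clones that the F test called and by 903 dimmer clones that it did not call. The list is therefore one section through a broad class of small ranges, set by brightness and by the F test. Mean A of the members ran from 7.92 to 12.37 with a median of 8.94, against 9.16 in the bright clones that were called. The residual SD, which is the spread of the arrays around the fit, had a median of 0.28 in the 150 (0.17 to 0.79), 0.35 in the bright called clones, 0.46 in the bright uncalled clones of larger range and 0.27 over all clones.

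The members lay above the slide background on most arrays but not on all. The share of a member's 80 spots that were above background in both channels ranged from 48.8% to 100% with a median of 81.9%. In 16.1% of the 6000 values (150 clones on 40 arrays) neither spot passed. The log2 ratios of those values had an SD of 0.26, against 0.34 in the values with at least 1 spot above background. When only spots above background entered the fit, 519 of the 1920 clones gave all 12 months, 117 of the 150 among them, the median range of these members was 0.64 and the F test called 8 of them (6.84%, against 52.2% of the 519). Agreement between the 2 spots of a clone was close. The SD of their difference had a median of 0.18 in the 150, against 0.26 over all clones and 0.19 in the bright called clones.

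The clone with the smallest range was Myt01-015B06, at 0.16 (1.12-fold), with its highest fitted level in January (0.09 relative to its own yearly mean) and its lowest in October (-0.07). Its log2 ratios on the 4 Feb/Jan arrays were -0.06, -0.10, -0.14 and -0.08, a mean of -0.09 ± 0.04 (SD, n = 4). On the 3 Aug/Jul arrays they were 0.34, 0.16 and -0.10. All 40 of its ratios lay between -0.33 and 0.34, and Feb/Jan was the only one of the 12 steps with all its arrays on 1 side of 0. Its 2 extreme months differed by 0.16 with a standard error of 0.15, and its residual SD of 0.17 was the smallest among the 150. Its range was 0.34 with plain background subtraction and 0.37 with a normexp offset of 0. Plain subtraction here replaced intensities not above 0 by a small positive value.

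Myt01-012H11 followed with a range of 0.18, its highest month November and its lowest April. Its Jan/Dec arrays read 0.45, -0.45 and 0.35 and its Dec/Nov arrays 0.17, -0.31 and -0.36. The arrays of a step thus spanned more than the whole fitted year. This clone lay close to the brightness limit (mean A 7.93), and 61.3% of its spots were above background.

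Myt01-011E08 had a range of 0.25, from March to April. Its 4 Apr/Mar arrays read -0.25, 0.38, 0.43 and 0.22, and the value that went the other way was that of the first array, the one that opposed its step across all clones. Without the closing step May/Apr its range was 0.74. The other 7 of the 8 smallest ranges lay between 0.17 and 0.54 in that setting, and that of Myt01-007H11 was the 0.54. With print-tip loess the range of Myt01-007H11 was 0.76.

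The other 5 of the 8 smallest ranges were those of Myt01-010D06 (0.29), Myt01-004E08 (0.32), Myt01-007H11 (0.33), Myt01-013G07 (0.33) and Myt01-015A03 (0.34). Myt01-007H11 read -0.74, 0.39 and 0.70 on its Jul/Jun arrays, where the first array had the later month in Cy5 and the other two in Cy3. Myt01-013G07 read -0.01, 0.01 and 0.00 on its Nov/Oct arrays, and 0.61, -0.23 and -0.22 on its Dec/Nov arrays. Myt01-015A03 read -0.14, -0.51 and -0.14 on its Nov/Oct arrays and 0.13, 0.31 and 0.22 on its Aug/Jul arrays. With median centring in place of loess the ranges of Myt01-004E08, Myt01-015A03 and Myt01-011E08 were 0.58, 0.64 and 0.49. In these clones, quiet steps stood beside steps whose arrays disagreed by more than the fitted range.

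**Figure D2:**
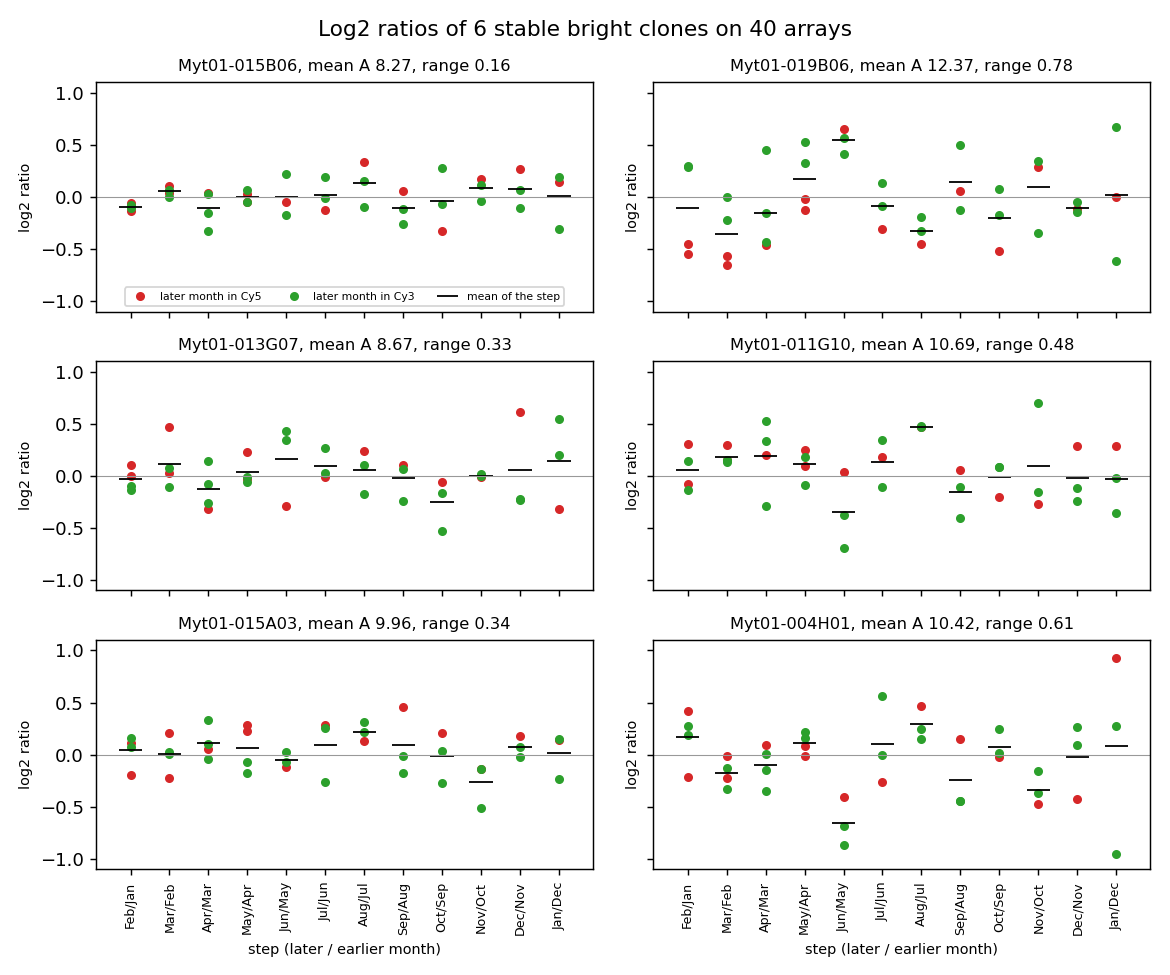
Log2 ratio of the later over the earlier month (vertical axis) on each array of the 12 steps (horizontal axis) for 3 clones of small range (left) and 3 of the brightest members (right), with points coloured by the dye of the later month and bars for the mean of the step. Myt01-015B06 stays between -0.33 and 0.34 on all 40 arrays, while Myt01-019B06 and Myt01-004H01 have all 3 Jun/May arrays on 1 side of 0.

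The 5 brightest members had ranges from 0.48 to 0.78, beside a median of 0.56 over the 150. Myt01-019B06, at a mean A of 12.37, was the brightest of the 150, with all of its spots above background and a range of 0.78 (1.71-fold) from April to June. Its Jun/May arrays read 0.65, 0.57 and 0.41, a mean of 0.55, so that all 3 agreed in direction. Its Feb/Jan arrays read -0.45, 0.29, -0.55 and 0.30, and its sign there followed the dye, with the later month in Cy5 on the 2 negative arrays. Over all arrays its dye coefficient was -0.12 and was not called (adjusted p = 0.103 by limma). Its F test gave an adjusted p of 0.178 (limma, over 1920 clones).

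Myt01-011G07 (mean A 11.30) had a range of 0.64 with its highest month in August, and its Aug/Jul arrays read 0.78, 0.37 and 0.17. Myt01-011G10 (mean A 10.69, range 0.48) also peaked in August, and its Aug/Jul arrays read 0.46, 0.47 and 0.47, the closest agreement of that step among the 5 brightest members. Without the closing step its range was 0.91. Myt01-004H01 (mean A 10.42, range 0.61) was lowest in June, with Jun/May arrays at -0.40, -0.68 and -0.87, and its Jan/Dec arrays read 0.93, -0.95 and 0.27. Each of these clones thus had at least 1 step with all its arrays on 1 side of 0. The steps named are a selection from 12 per clone, and the few arrays of a step can share a sign by chance. Myt01-015B06, the clone of smallest range, also had such a step (Feb/Jan). No member was called in any step contrast, so these readings are given as description and not as a change that the F test missed.

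Myt01-006D02 (mean A 10.61, range 0.56) was the brightest member that stayed on the list in all 10 other fits compared and was called by the F test in none. Its fitted level was lowest in January and highest in September. Its Aug/Jul arrays read 0.55, 0.33 and -1.21, which was the widest spread of any of its 12 steps. No member was saturated, the highest foreground intensity of any of the 150 being 22692.

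The limits of the list ran through a dense part of the data. The last clones within the range limit were Myt01-018G01 (0.81), Myt01-004E01 (0.81) and Myt01-004H02 (0.81), and the first outside were Myt01-016D03 (0.82), Myt01-001E11 (0.82) and Myt01-008G05 (0.82). Myt01-018G01 read 0.38, 0.66, 0.68 and 0.42 on its 4 May/Apr arrays, all above 0, and Myt01-004E01 read 1.39, -0.79 and -0.88 on its Jul/Jun arrays. At the brightness limit, Myt01-004C04 was inside at 7.92 and Myt01-011E03 outside at 7.91. The range of Myt01-004C04 was 0.54, and it was 0.79 with plain background subtraction and 0.31 with no background correction. At the F limit, Myt01-007F04 was inside with an adjusted p of 0.0504 and Myt01-011G03 outside with 0.0463 (limma). Myt01-011G03 had a range of 0.56, close to the median of the list, and read 0.50, 0.78 and 0.50 on its Aug/Jul arrays. The ranges on either side of the limit differed by less than the residual SD of any of these 6 clones. Without the closing step the range of Myt01-007F04 was 0.69 in place of 0.40, and that of Myt01-016D03 1.43 in place of 0.82.

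Over the calendar, the members had their highest fitted month most often in September (28 clones, 18.7%) and August (26 clones, 17.3%). Among all clones these months held the maximum in 8.85% and 12.1%, and among the bright clones in 12.3% and 17.3%. The lowest month was most often June (30 clones, 20%, against 14.4% of all clones and 18.4% of bright clones). November followed (20 clones, 13.3%, against 10.6% of all clones and 16.4% of bright clones). The median deviation of the 150 from their own yearly means was highest in August (0.09) and lowest in December (-0.04). In print-tip blocks 1 to 8 the August median was 0.18 and the lowest month November (-0.09), while in blocks 9 to 16 the medians of August and December were 0.04 and -0.05. In August 100 of the 150 lay above their own mean and in December 60 did, where all clones did so in 48.8% and 50.9%.

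**Figure D3:**
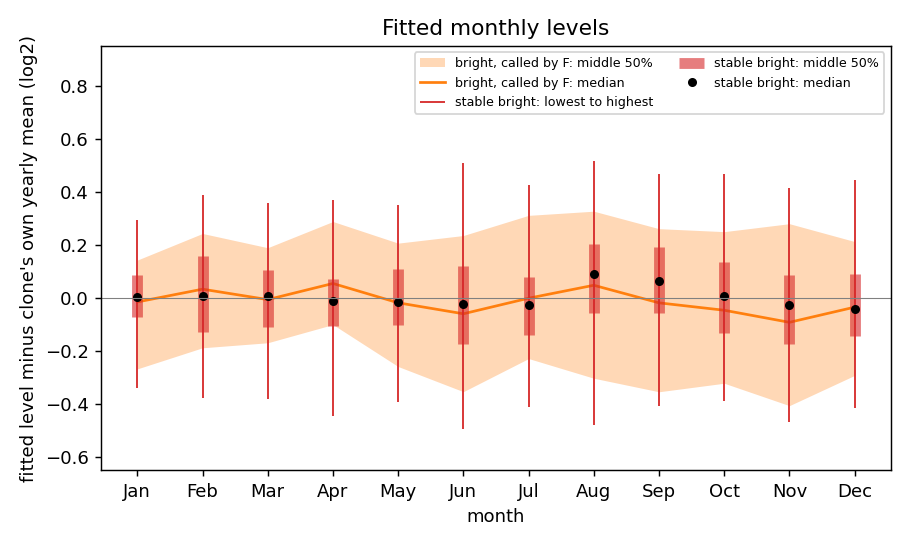
Fitted level minus each clone's own yearly mean (log2) by month, with the median (points), middle 50% (thick bars) and lowest to highest value (thin bars) of the 150 stable bright clones and the median and middle 50% of the 407 bright clones called by the F test (line and band). The medians of the stable clones lie between -0.04 in December and 0.09 in August.

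How near each month came to the clone's own mean also varied through the loop. In January all 150 lay within 1.3-fold of it, in August 138 and in June 138. The standard error of a month against January grew with its distance from January in the loop, from a median of 0.13 in February to 0.26 in July and in August. These standard errors belong to differences from January and not to deviations from the yearly mean. The part of precision in the larger deviations of summer was not tested.

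The 95% intervals against January come from the fit whose range and F test chose the members, so they are given as a description of that fit and their coverage after the choice is not 95%. In 94 of the 150 (62.7%, against 52.9% of all clones) the intervals of all 11 months lay within 2-fold of January, and in 4 they lay within 1.5-fold. For single months, the intervals of all 150 lay within 2-fold in February and in December, and of 119 in June.

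In single contrasts none of the 150 was called at an adjusted p under 0.05 with a log-odds B above 0. Over all clones 11% were called in at least 1 month against January, 26.5% in at least 1 step and 4.38% between the 4 months from May to August and the rest of the year. These contrasts come from the same fit as the rule and are given as description.

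Loess on the clone spots set the ratios of each array around 0, so a median near 0 is no trait of the stable clones. Their median log2 ratio ranged from -0.11 (first Oct/Sep array) to 0.18 (first Aug/Jul array), and all 3 Aug/Jul arrays were above 0, at 0.18, 0.09 and 0.05. The SD of the 150 ratios ranged from 0.18 on the third May/Apr array to 0.51 on the second Nov/Oct array, with a median of 0.31. The median SD was 0.65 for the bright called clones and 0.43 over all clones. The number within 1.5-fold ranged from 109 (72.7%, second Nov/Oct array) to 149 (99.3%, first Feb/Jan array), with a median share of 95%. Of all clones, 73.3% (second Nov/Oct array) to 94.6% lay within 1.5-fold, with a median of 89.7%. From 0 to 8 of the 150 passed 2-fold on an array.

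Replicate arrays agreed more closely on the members where the dyes were arranged alike. Across the 150 clones, the correlation between 2 arrays of a step had a median of 0.48 over the 17 pairs in the same dye orientation (-0.48 to 0.95) and of 0.04 over the 31 pairs in opposite orientation (-0.76 to 0.65). For the bright called clones the medians were 0.82 and 0.61, and for all clones 0.71 and 0.36. With each clone's dye coefficient removed, the medians of the 150 were 0.46 and 0.10, and after print-tip loess 0.50 and 0.17. The rule kept clones with no F call and a small range, so the lower values of the 150 are not independent of the rule. The points are clones of 1 array pair and share its hybridizations, so the values carry no p. Replicates 2 and 3 of Dec/Nov, which share an orientation, agreed most closely (0.95), and the first Jul/Jun array opposed both others of its step (-0.49 and -0.63), where all clones gave 0.07 and 0.03. Without that first Jul/Jun array 109 of the 150 stayed on the list and the F test called 38 of the 150 (25.3%, against 43.5% of all clones).

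**Figure D4:**
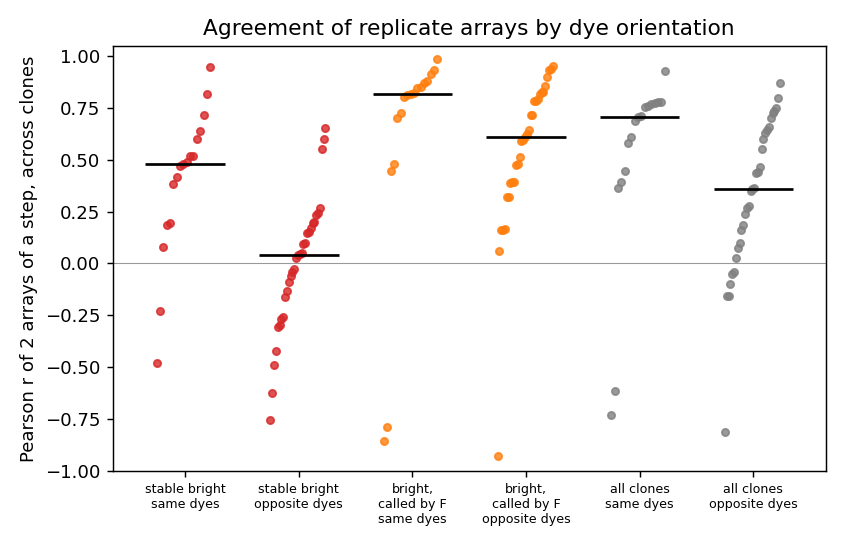
Pearson's r across clones between 2 arrays of the same step (vertical axis), 1 point per pair, for pairs in the same (17) or opposite (31) dye orientation and for the 150 stable bright clones, the bright clones called by the F test and all clones, with bars for medians. The stable clones have medians of 0.48 and 0.04, and the 3 lowest points of the called clones involve the first Apr/Mar array.

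A dye term per clone, which measures a constant excess of Cy5 over Cy3 whatever the months, was called in 21 of the 150 (14%), against 8.96% of all clones. Dye variation enters the residual that the F test used, so this measure is not wholly independent of the rule. Of the 21, 15 were higher in Cy5 (10% of the 150, against 3.49% of all clones) and 6 in Cy3 (4%, against 5.47%). In the bright called clones 7.86% had a dye call and in the bright uncalled clones of larger range 18.1%. With the dye term in the model, the F test called 17 of the 150, where 40.9% of all clones were called.

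The largest called dye coefficient towards Cy5 was that of Myt01-014A09 at 0.18 ± 0.04 (SE, adjusted p = 0.00385 by limma). With the later month in Cy5 its ratios were above 0 on 13 of 15 arrays. Myt01-006F01 (0.17, with a range of 0.78 that was 1.57 without the closing step) and Myt01-015A08 (0.15) came next. Towards Cy3 the largest were Myt01-012F04 (-0.20, adjusted p = 0.0381), Myt01-016D12 (-0.18) and Myt01-008E06 (-0.13). Myt01-012F04 read -1.14 on the Oct/Sep array with the later month in Cy5 and 0.15 and -0.09 on those with it in Cy3. Myt01-016D12, which lay in block 4 like Myt01-012F04, read -1.09 on that first Oct/Sep array. The lowest median of the members of a block on that array was -1.12. The parts of dye and of block in these values were not tested.

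The members were not spread evenly over the slide. Blocks 9 to 16 held 91 of the 150 and blocks 1 to 8 held 59, while the bright clones were 321 and 319. By block, from 4 members (block 1, 11.4% of its bright clones) to 15 (block 13, 35.7%) were found, and block 7, which held the most bright clones (56), had 5 (8.93%). After print-tip loess, which fits a curve in each block, the list drawn by the same rule held 74 and 76 clones in these parts of the slide, 99 of the 150 were on it, and the F test called 51 of the 150 (34%, against 41.8% of all clones). By the plate number in the clone code, 0 clones of plate 20 were bright, and plate 3 gave 10 members of 25 bright clones (40%), plate 4 gave 15 of 52 and plate 19 gave 1 of 20.

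**Figure D5:**
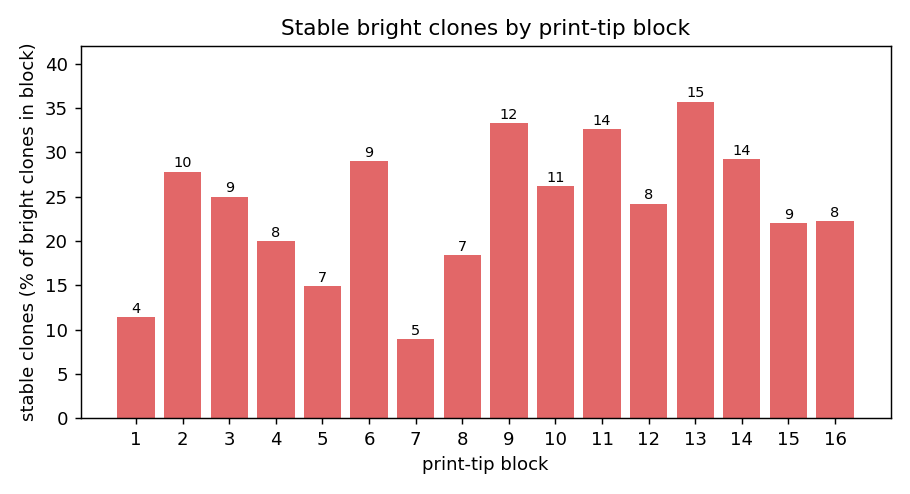
Stable bright clones as a percentage of the bright clones of each of the 16 print-tip blocks, with the number of stable clones above each bar. Block 13 reaches 35.7% and block 7 stands at 8.93%.

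Position also showed in how members moved together. Over the 40 arrays, 2 members of the same block had a median correlation of 0.23 (703 pairs) and 2 members of different blocks one of 0.00 (10472 pairs). After print-tip loess these medians were 0.02 and 0.01. Before print-tip loess, the bright uncalled clones of larger range had medians of 0.23 and 0.02, much like the members, and the bright called clones 0.07 and -0.01. On 35 of the 40 arrays the median ratio of the members in a block correlated positively with that of the other bright clones in the block (median r = 0.58 over 16 blocks). Pairs share clones and arrays, so these values are a description.

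No single list stood for all settings. Of the 150, 31 met the rule in all 10 other ways of normalizing and fitting, 42 were called by the F test in none of them, and 47 were called only when arrays were weighted by their quality. The clones of small range on all 10 lists and never called included Myt01-015B06, Myt01-013G07 and Myt01-015A03. Their ranges of 0.16, 0.33 and 0.34 lay at the low end of the 150.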

How the data were processed

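Single-animal RNA was hybridized to 40 two-dye arrays. The authors deposited spot intensity values (mean foreground and median local background), read with GenePix and not normalized, and a table of log2 ratios that the authors had normalized with limma (background offset, loess). The latter served as an alternative, with 37 of 40 columns (2 held values other than those of their own array and 1 lacked a value). Intensities were corrected here with normexp (offset 50), normalized by loess on clone spots within each array, and the 2 spots of each of 1920 clones were averaged. limma 3.58.1 in R 4.3.3 fitted 11 month coefficients (29 residual and 3.68 prior degrees of freedom), with Benjamini-Hochberg adjustment over all clones. A spot was above background where its foreground passed the background by 2 SD. Named clones were the 8 smallest ranges, the 5 brightest, those at each limit and the 3 largest called dye coefficients in each direction. The number of arrays limits precision. The fit was run on simulated data with independent noise, which held no dye or block part in the F test. There the F test called 51.5% of clones changed by 0.5 log2 in June and July, and 92.5% of those changed by 1. Members and lists were chosen with earlier results of these data known.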

Additional observations from a re-analysis of the deposited data

Results flagged for a closer look

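Among 112 sets of 4 arrays of 1 step, made up of the ratios of the named members and 4 measures over the 150, 4 sets held a value far from the other 3. Chance alone gives this in about 1 in 20 sets. Myt01-013G07 read 0.229 on the third May/Apr array, against -0.0571 to -0.015 on the others. Myt01-011G10 read 0.299 on the third Mar/Feb array, against 0.128 to 0.155 on the others. Myt01-007F04, the member nearest the F limit, read 0.426 on the second Feb/Jan array, against 0.096 to 0.144. The correlation between the 2 spots of the members was 0.721 on the third May/Apr array, against 0.912 to 0.935 on the others.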

How the results depend on the processing

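The median range of the 150 stayed between 0.43 (no background correction) and 0.70 (plain subtraction) over all settings. The number of the 150 on the list fell to 99 with print-tip loess (95 with a dye term added), 60 with array weights, and 73 with the brightness limit at the top 1/2. A limit at the top 1/6 gave a list of 114 clones that held 70 of the 150, and an adjusted p of at least 0.2 a list of 120 that held 83. The F test called 12 of the 150 without background correction (35.4% of all clones), 6 with loess over all spots (37.7%), 51 with print-tip loess (41.8%) and 55 with a dye term added to it (44.1%), 1 with median centring (19.9%), 10 with dim clones filtered (64.9% of 784), 17 with a dye term (40.9%), 90 with array weights (59.7%), 2 in the authors' ratios (32.8%), 13 with the first Apr/Mar array turned (40.9%), 1 without the closing step (31.5%) and 8 with spots above background only (52.2% of 519). In place of 719, the F test called 382 of all clones with median centring, 1147 with array weights and 271 with spots above background only. Dye calls among the 150 were 11 with plain subtraction (7.33%, against 5.57% of all clones), 13 without background correction (8.67%, 3.54%), 5 with print-tip loess with or without the dye term in the fit (3.33%, 1.88%), 69 with median centring (46%, 33.6%) and 12 both in the authors' ratios (8%, 4.48%) and without the closing step (8%, 4.69%). Leaving out 1 array at a time left 109 to 146 of the 150 on the list, a median range of 0.56 to 0.63, 0 to 38 F calls and 11 to 24 dye calls. The 38 came without the first Jul/Jun array, and the 11 without the first Jan/Dec array. The r of same-numbered arrays ran from -0.36 to 0.47, over 0.1 in 47 of 204 pairs. That of other-numbered arrays ran from -0.60 to 0.54, over 0.1 in 74 of 528 pairs. Whether replicate numbers pair the samples cannot be told from these values. With the replicate block 147 of the 150 were on the list and 3 were called by F (38.4% of all clones). The fits with print-tip loess plus a dye term and with spots above background only were chosen after seeing the data, and the causes of these changes were not tested.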
